A study of Mus musculus with 6 samples.

Results

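The oestrogen receptor genes and their closest relatives were followed in lumbar dorsal root ganglia: 7 genes of the 36528 listed, taken by NCBI gene identifier. They are Esr1 and Esr2 (the nuclear oestrogen receptors alpha and beta), Pgr (the progesterone receptor), Gper1 (a membrane G protein-coupled receptor for oestrogen) and Esrra, Esrrb and Esrrg (the oestrogen-related receptors alpha, beta and gamma). The family was chosen by the measured counts of Esr1, which were already known to differ between these groups. The values of the 7 genes in that comparison are therefore given as a description and carry no test. Ganglia came from female mice 12 to 18 weeks old, all of them homozygous for a loxP-flanked Scn9a gene, which encodes the sodium channel Nav1.7. The CreER-positive mice (n = 3) carried the transgene pCAAG.Cre.ER, an inducible Cre recombinase under a promoter labelled pCAAG, and their control littermates (n = 3) did not. The series describes the knockout as global. A library held RNA of 1 mouse, from its 6 lumbar ganglia L4 to L6. No source used here gives the agent, dose or time of induction.

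Nuclear steroid receptors are transcription factors that are switched on by their hormone. Oestrogen receptors held by chaperones bind oestradiol, pair up and act at oestrogen response elements in DNA, and the progesterone receptor gene is a classical target of theirs. The oestrogen-related receptors resemble them in sequence but do not bind oestrogen, and they are known as regulators of mitochondrial metabolism. In CreER the Cre recombinase is fused to a ligand-binding domain of the oestrogen receptor, so that the enzyme reaches the nucleus when a ligand such as tamoxifen is bound. No source used here gives the species or sequence of that domain.

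Family members resemble each other most in the DNA-binding domain, and that stretch is shown because reads that fit several members could be counted for the wrong one. The 60 coding bases of Esr1 that are closest to Esr2 join exons 4 and 5 of the Esr1 transcript and lie at bases 607 to 666 of its coding sequence (GENCODE M21, GRCm38, plus strand, chr10:4746759-4783867 including the intron between them). The coding stretch that best matches it is written for each nuclear receptor of the family 5′ to 3′, and capitals mark the bases that differ from Esr1. Gper1, which is no nuclear receptor, is not shown, since its best stretch differed at 33 of the 60 bases.
Esr1: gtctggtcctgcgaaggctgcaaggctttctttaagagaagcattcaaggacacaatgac
Esr2: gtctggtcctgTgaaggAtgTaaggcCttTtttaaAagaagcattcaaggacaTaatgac
Esrrb: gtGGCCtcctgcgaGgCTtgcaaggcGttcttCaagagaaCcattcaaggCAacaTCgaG
Esrrg: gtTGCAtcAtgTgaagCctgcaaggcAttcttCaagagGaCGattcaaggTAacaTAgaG
Esrra: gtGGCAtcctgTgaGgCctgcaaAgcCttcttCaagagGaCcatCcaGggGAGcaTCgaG
Pgr: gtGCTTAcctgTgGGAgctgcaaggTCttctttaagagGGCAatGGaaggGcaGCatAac
Esr2 differed from Esr1 at 7 of these 60 bases, Esrrb at 15, Esrrg at 17, Esrra at 20 and Pgr at 21. The stretch was chosen as the closest to Esr2, and these 4 receptors came closer within Esr1 coding bases 584 to 644. In their own closest 60 bases there, Esrrb and Esrrg each differed at 12, Esrra at 14 and Pgr at 17. The longest run of identical coding bases that Esr1 shared with another of the 7 genes was 17 bases, with Esr2. Of the 1748 words of 50 bases in the Esr1 coding sequence, 0 occurred in an annotated transcript of any other gene, and the same held for the other 6 genes. The coding sequence makes up 0.457% of the gene width deposited for Esr1. Words from outside the coding sequences and matches with differing bases were not searched, so this does not cover all reads that could be miscounted. No source used here gives the read length.

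Esr1 covers chr10:4611989-5005633 in GRCm38, and no other annotated gene overlaps it. The deposited gene width, 393569 bases, is close to that whole span, and the longest transcript paired with a RefSeq record takes up 1.61% of it. Reads from introns therefore appear to be counted. Esr2 (chr12:76120419-76177259), Pgr (chr9:8898900-8968611) and Esrrb (chr12:86361117-86521628) are also free of overlapping genes. Gper1 (chr5:139423150-139427800) overlaps 3110082I17Rik, which held 8074 counts over the 6 libraries against 608 for Gper1. Esrra (chr19:6910977-6922048) overlaps Trmt112 and Mir6990, and Esrrg (chr1:187608510-188214885) overlaps the non-coding genes Gm36388 and 9330162B11Rik. The strand setting of the counting is unknown, so reads in those overlaps cannot be assigned to 1 gene.

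Total counts ranged from 40237131 to 63332040 per library. Scn9a, the floxed gene, had 620, 565 and 574 CPM (reads relative to a library total that is scaled for composition) in CreER-positive replicates 1 to 3, against 635, 611 and 557 CPM in control replicates 1 to 3, a log2 fold change of -0.04 ± 0.07 (SE). No source used here says which exons were floxed, and reads outside the deleted part are counted, so this does not check the labels. All 8 sensory neuron markers were present, the lowest at a mean of 146 CPM. CreER-positive replicate 3 had the highest marker sums for satellite glia (759 CPM, against 498 to 523 CPM in the other 5 libraries), fibroblasts (1228 CPM, against 703 to 963 CPM), macrophages (58.3 CPM, against 33.3 to 42.0 CPM), endothelium (81.9 CPM, against 50.1 to 62.4 CPM) and smooth muscle (48.5 CPM, against 31.6 to 38.5 CPM). Of the 4 satellite glia markers, Fabp7 made most of that difference (375 CPM, against 127 to 185 CPM). Ptprz1 was also highest there (126 CPM, against 95.7 to 111 CPM). Glul (201 CPM) and Kcnj10 (58.1 CPM) lay within the range of the other libraries. Kcnj10 was higher in every CreER-positive library than in any control, with an edgeR adjusted p of 0.244. The Schwann cell marker sum was highest in CreER-positive replicate 2 (3090 CPM), with 2953 CPM in CreER-positive replicate 3. Control replicate 2 held skeletal muscle transcripts (42.8 CPM over 4 tested markers, against 4.2 to 7.37 CPM).

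Esr1 was higher in all 3 CreER-positive libraries than in any control. It had 77.9, 75.2 and 56.2 CPM in CreER-positive replicates 1 to 3, against 20.7, 23.1 and 27.3 CPM in control replicates 1 to 3. The lowest CreER-positive library lay above the highest control library. The means were 69.8 ± 11.8 CPM in CreER-positive mice and 23.7 ± 3.32 CPM in controls (SD, n = 3 each), a log2 fold change of 1.56 ± 0.13 (SE) or 2.94-fold, with a 95% interval from 2.39-fold to 3.62-fold. As raw counts these were 4669, 4623 and 2991 reads in CreER-positive replicates 1 to 3, against 842, 1277 and 1724 reads in control replicates 1 to 3. At the control mean the 3 CreER-positive libraries would have held 1420, 1455 and 1260 Esr1 reads, so 3249, 3168 and 1731 reads were above it.

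CreER-positive replicate 3, the lowest of its group in Esr1, also had the lowest sum of the 8 sensory neuron markers (5564 CPM, against 6461 and 6876 CPM in CreER-positive replicates 1 and 2 and 5677 to 6192 CPM in controls). That place rests on Scn10a, the Nav1.8 gene, which had 893, 888 and 825 CPM in CreER-positive replicates 1 to 3, against 1098, 1109 and 1035 CPM in control replicates 1 to 3 (edgeR adjusted p 0.0957). Without Scn10a the other 7 markers summed to 4739 CPM in CreER-positive replicate 3, against 4569 to 5156 CPM in controls. Among these 7, Avil (576 CPM), Pou4f1 (152 CPM) and Rbfox3 (125 CPM) also had their lowest value of all libraries in that replicate. Tubb3, Nefh, Prph and Isl1 did not. The part of cell composition in the Esr1 level was not tested, and in bulk RNA fewer cells of a type and less RNA per cell cannot be told apart. Without that replicate the Esr1 log2 fold change was 1.69, and without it and control replicate 2 it was 1.66. The coefficient of variation of Esr1 between animals was 16.9% in CreER-positive mice and 14% in controls, while counting error alone would give 1.59% and 2.88%. Counts per gene cannot tell reads of the receptor domain in the CreER transgene from reads of Esr1 itself, and the 3 libraries with the most Esr1 are those with the transgene. A higher level of the Esr1 gene and reads of the transgene therefore cannot be told apart here.

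**Figure D1:**
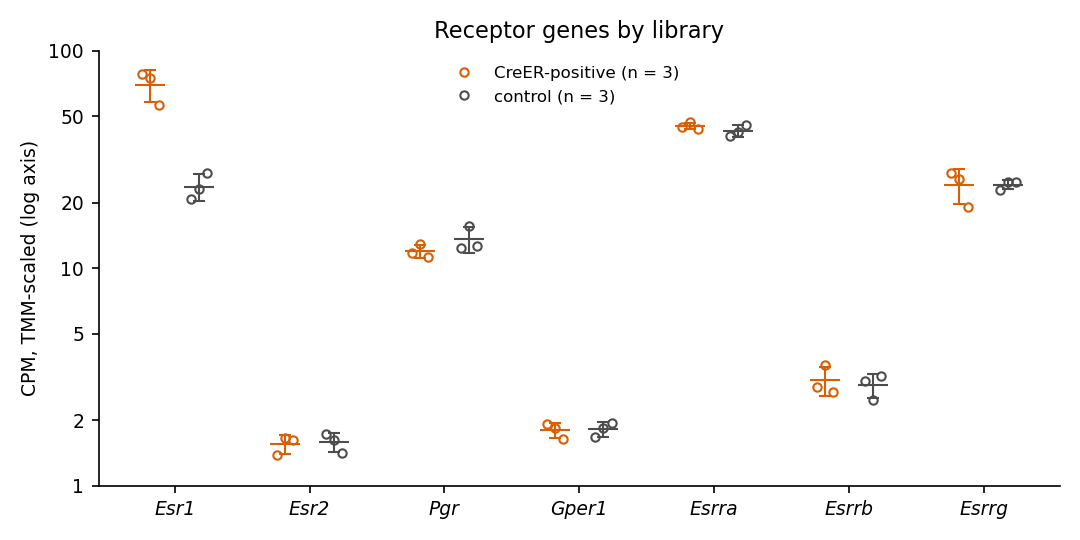
CPM of the 7 receptor genes (log axis) in CreER-positive (orange, left of each pair) and control (grey) libraries. Circles are libraries, bars the mean ± SD of 3; the Esr1 groups are apart, at 56.2 to 77.9 CPM in CreER-positive and 20.7 to 27.3 CPM in control mice, and the groups of the other 6 genes overlap.

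The other oestrogen receptors were low, with overlapping groups. Esr2, the beta receptor, had 1.38, 1.66 and 1.62 CPM in CreER-positive replicates 1 to 3, against 1.72, 1.63 and 1.41 CPM in control replicates 1 to 3. The groups overlap, and the log2 fold change was -0.02 ± 0.15 (SE) with a 95% interval from -0.37 to 0.32. Esr2 rested on 70 to 102 reads per library, and its variation of 9.55% in CreER-positive mice and 10.2% in controls was no larger than counting error alone would give (10.6% and 11.0%).

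Gper1, the membrane receptor, had 1.92, 1.84 and 1.64 CPM in CreER-positive replicates 1 to 3, against 1.67, 1.84 and 1.95 CPM in control replicates 1 to 3. The groups overlap over almost their whole range, and the log2 fold change was -0.02 ± 0.14 (SE; 95% interval from -0.34 to 0.29). It had 68 to 123 reads per library, some of which may belong to the overlapping gene.

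Pgr, the receptor for progesterone, was slightly lower on average in CreER-positive ganglia, with overlapping groups. It had 11.8, 12.9 and 11.2 CPM in CreER-positive replicates 1 to 3, against 12.4, 15.7 and 12.6 CPM in control replicates 1 to 3. The highest value belonged to control replicate 2, the library with muscle transcripts, whose part in it was not tested. The log2 fold change was -0.18 ± 0.10 (SE) with a 95% interval from -0.41 to 0.05. It was -0.06 without control replicate 2 and -0.02 without that library and CreER-positive replicate 3.

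Among the oestrogen-related receptors, Esrra had the most reads, 1650 to 2888 per library. It had 44.8, 46.8 and 43.6 CPM in CreER-positive replicates 1 to 3, against 40.6, 42.4 and 45.7 CPM in control replicates 1 to 3. Its groups overlap, with a log2 fold change of 0.07 ± 0.06 (SE; 95% interval from -0.06 to 0.20). The variation between animals was 3.61% in CreER-positive mice and 6.01% in controls.

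Esrrb, known in the mouse for its part in stem cells and placenta, had 2.85, 3.58 and 2.71 CPM in CreER-positive replicates 1 to 3, against 3.03, 2.47 and 3.20 CPM in control replicates 1 to 3. The groups overlap, with a log2 fold change of 0.07 ± 0.15 (SE; 95% interval from -0.27 to 0.42). Esrrg, which in neurons and muscle is tied to oxidative metabolism, had 27.5, 25.8 and 19.2 CPM in CreER-positive replicates 1 to 3, against 22.9, 24.9 and 24.9 CPM in control replicates 1 to 3. Both the highest and the lowest of the 6 values were in CreER-positive mice, the lowest in replicate 3, so that the log2 fold change was 0.00 ± 0.12 (SE; 95% interval from -0.27 to 0.26). The variation of Esrrg was 18.2% in CreER-positive mice and 4.65% in controls. Without CreER-positive replicate 3 its log2 fold change was 0.14. The part of that library's marker levels was not tested.

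All 7 genes passed the filter on low counts, the lowest with 68 reads in a library. By edgeR's quasi-likelihood test over 22043 genes with Benjamini-Hochberg adjustment at 0.05, 1 of the 7, Esr1, was among the called genes, against 0.726% of all tested genes (0.177% called higher and 0.549% lower in CreER-positive mice). Its groups were the only ones of the 7 that did not overlap, which held for 15.9% of all tested genes (6.63% higher and 9.31% lower in CreER-positive mice). The contrast had served to choose the family, so nothing is read from these counts. The log2 fold changes of the other 6 genes ran from -0.18 to 0.07. The 6 together summed to 87.6 ± 6.73 CPM in CreER-positive mice and 87.0 ± 4.03 CPM in controls (SD, n = 3 each). Esr1 accordingly made up 46.3%, 44.8% and 41.3% of the reads of the 7 genes in CreER-positive replicates 1 to 3, against 20.1%, 20.6% and 23.3% in control replicates 1 to 3.

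Compared per length, Esrra had the highest level of the 7 genes and Esr2 and Esrrb were near the bottom, on either length used. CPM per kb of the longest RefSeq-paired transcript put Esrra first, at 20.1 ± 0.73 in CreER-positive mice and 19.1 ± 1.15 in controls (SD, n = 3 each). Esr1 came next in CreER-positive mice, at 11.0 ± 1.86, with no overlap with Esrrg (4.50 ± 0.82) below it. In controls Esr1 came after Esrrg, at 3.74 ± 0.52, and its values overlapped those of Esrrg (4.51 ± 0.21). Pgr followed at 1.74 ± 0.12 in CreER-positive mice and 1.97 ± 0.27 in controls. Gper1 and Esrrb, at 0.71 ± 0.06 and 0.71 ± 0.11 in CreER-positive mice and 0.72 ± 0.05 and 0.67 ± 0.09 in controls, overlapped each other in both groups. Esr2 was last, at 0.465 ± 0.044 in CreER-positive mice and 0.474 ± 0.048 in controls. Intron reads appear to be counted but intron length is left out here, so this scale may rank genes with long introns higher. The Esr1 level in CreER-positive mice may also hold reads of the transgene.

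The deposited RPKM (reads per kb of gene width, relative to the library total) divides by nearly the whole gene span, and it ranks genes with long introns lower. On that scale Esr1 was at place 3 in CreER-positive mice (0.179 ± 0.027 RPKM), overlapping Pgr (0.175 ± 0.011 RPKM), and at place 4 in controls (0.062 ± 0.008 RPKM), below Pgr (0.201 ± 0.028 RPKM) without overlap. Esrra was again first, at 4.12 ± 0.115 RPKM in CreER-positive mice and 3.97 ± 0.217 RPKM in controls. Esrrg, whose span is 606376 bases, was at place 5 in both groups (0.040 ± 0.007 RPKM in CreER-positive mice and 0.041 ± 0.002 RPKM in controls).

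**Figure D2:**
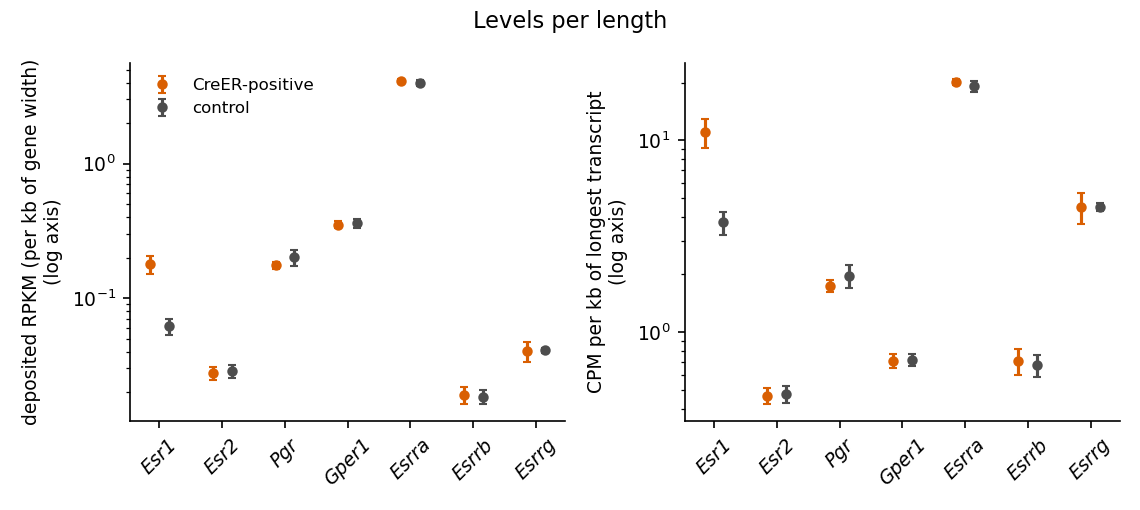
Levels of the 7 genes per length on log axes, as the deposited RPKM per kb of gene width (left) and as CPM per kb of the longest RefSeq-paired transcript (right). Points are means and bars the SD of 3 libraries, CreER-positive (orange, left) beside control (grey); Esrra leads on both scales, while the places of Gper1 and Esrrg depend on the length used.

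The genes on both sides of Esr1 on chromosome 10 had log2 fold changes from -0.11 to 0.43 that did not pass the test. Within 1 Mb lie 17 other annotated genes, of which 14 were tested. By edgeR over all genes 0 of the 14 passed, where the share of all tested genes called was 0.726%. At an unadjusted p under 0.05 there was 1 of the 14, Rgs17 (7.14%, against 10.5% of all tested genes), and DESeq2 and limma-voom called 0. Rgs17 averaged 97.8 ± 1.76 CPM in CreER-positive mice and 88.1 ± 2.85 CPM in controls (SD, n = 3 each). Its log2 fold change was 0.15 ± 0.05 (SE), with an edgeR adjusted p of 0.305. It was the 1 gene of the 14 whose groups did not overlap (7.14%, against 15.9% of all tested genes). Syne1, a nuclear envelope gene that begins 14.6 kb past the end of Esr1, had 240, 227 and 205 CPM in CreER-positive replicates 1 to 3, against 226, 250 and 245 CPM in control replicates 1 to 3. Its groups overlap, with a log2 fold change of -0.10 ± 0.08 (SE) and an edgeR adjusted p of 0.720. Ccdc170, which ends 47.5 kb before Esr1, had 1.97, 1.66 and 2.44 CPM in CreER-positive replicates 1 to 3, against 2.19, 2.28 and 2.07 CPM in control replicates 1 to 3 (log2 fold change -0.11 ± 0.16, edgeR adjusted p 0.877). The next neighbours had log2 fold changes of 0.00 (Armt1), 0.02 (Rmnd1), 0.43 (Myct1) and 0.00 (Fbxo5). Myct1, an endothelial gene, had 1.57, 2.16 and 3.25 CPM in CreER-positive replicates 1 to 3, against 1.55, 1.75 and 1.82 CPM in control replicates 1 to 3. Its highest value was in the library with the highest endothelial marker sum, and without that library its log2 fold change was 0.12. The part of endothelial content in Myct1 was not tested. The median over the 14 neighbours was 0.03, against 0.00 over all tested genes.

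**Figure D3:**
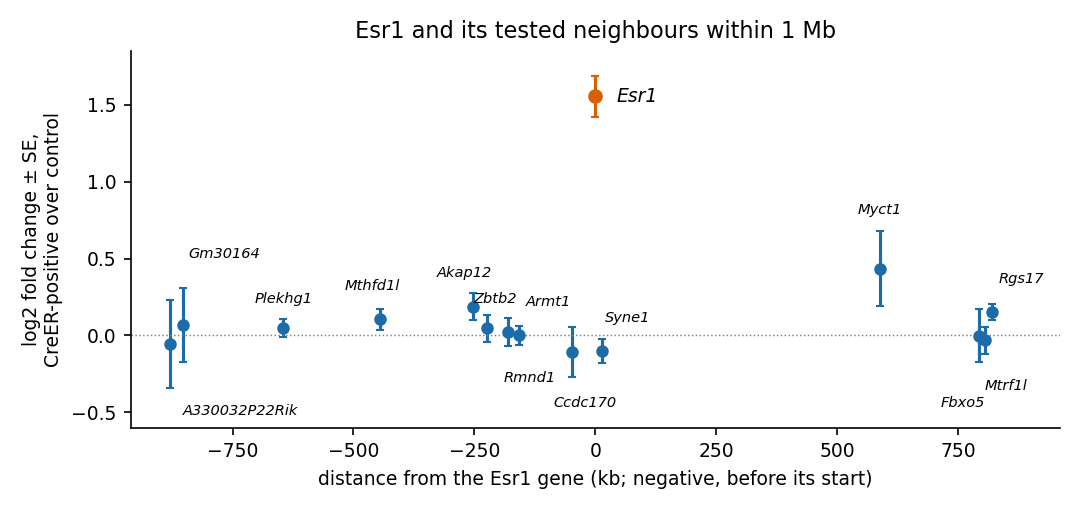
Log2 fold change ± SE (edgeR, CreER-positive over control) of Esr1 (orange) and its 14 tested neighbours (blue) against distance from the Esr1 gene in kb, negative before its start. Esr1 stands at 1.56, and the neighbours lie between -0.11 and 0.43.

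Around the receptors, 7 lists of genes were read: 160 tested genes beside the receptors themselves. By edgeR over all genes 0 of the 160 passed, where the share of all tested genes called was 0.726%. At an unadjusted p under 0.05 there were 14 of the 160 (8.75%, against 10.5% of all tested genes), DESeq2 called 1 and limma-voom 0. The groups did not overlap for 17 (10.6%, against 15.9% of all tested genes). The largest log2 fold change among the 160, in either direction, was that of Nr2e1 at -0.84 ± 0.54 (SE), at 0.101 CPM in CreER-positive mice and 0.181 CPM in controls.

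Genes known to respond to oestrogen, chiefly from human breast cancer cells and the rodent uterus, gave 0 calls among 30 tested. Of the 30 estimates 21 were positive, against 11210 of 22043 over all tested genes. The median log2 fold change was 0.09, against 0.00 over all tested genes. At an unadjusted p under 0.05 there were 2 (6.67%, against 10.5% of all tested genes), and DESeq2 and limma-voom called 0. Cited2, a transcriptional coregulator gene, had 7.6, 7.29 and 7.91 CPM in CreER-positive replicates 1 to 3, against 6.25, 6.21 and 6.44 CPM in control replicates 1 to 3. Its groups do not overlap, but the log2 fold change of 0.27 ± 0.08 (SE) had an edgeR adjusted p of 0.257. Xbp1, a transcription factor gene of the unfolded protein response, had 0.14 ± 0.05 (0.299), and Pdzk1, a scaffold protein gene, had -0.13 ± 0.06 (0.489). Greb1, an oestrogen-induced growth regulator gene, averaged 20.7 ± 0.58 CPM in CreER-positive mice and 22.1 ± 1.88 CPM in controls, and Ctsd, the protease cathepsin D, 663 ± 44.2 CPM and 621 ± 34.9 CPM (SD, n = 3 each). Neither difference passed the test (log2 fold changes -0.10 and 0.09, edgeR adjusted p 0.705 and 0.746).

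Receptors for other steroids also gave 0 calls among 10 tested by edgeR, and 0 by limma-voom. At an unadjusted p under 0.05 there were 4 (40%, against 10.5% of all tested genes). DESeq2 called 1, where it called 421 genes over the whole table, of 31086 with a p-value before its own filter on low means. Paqr5, a membrane progestin receptor gene, had 59.4, 55.2 and 55.0 CPM in CreER-positive replicates 1 to 3, against 71.1, 65.9 and 66.8 CPM in control replicates 1 to 3. Every CreER-positive value was below every control value, and the log2 fold change of -0.26 ± 0.05 (SE) had an edgeR adjusted p of 0.0769 and a DESeq2 adjusted p of 0.0152. Nr3c2, the mineralocorticoid receptor gene, had 0.18 ± 0.06 (edgeR adjusted p 0.269), and Paqr7, a further membrane progestin receptor gene, 0.21 ± 0.07 (0.280). Without CreER-positive replicate 3, when 549 of 22442 genes over the whole table passed, 1 gene of this list did, Pgrmc2, a membrane-associated progesterone receptor component gene (0.21 ± 0.07 with all libraries, edgeR adjusted p 0.353). The glucocorticoid receptor gene Nr3c1 averaged 73.7 ± 4.89 CPM in CreER-positive mice and 72.9 ± 1.58 CPM in controls (SD, n = 3 each), with a log2 fold change of 0.01 and an edgeR adjusted p of 0.963.

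Steroid receptor chaperones, which hold the receptors ready to bind hormone, had a median log2 fold change of 0.10 over 13 genes. By edgeR, DESeq2 and limma-voom 0 were called, and 3 had an unadjusted p under 0.05 (23.1%, against 10.5% of all tested genes). Stub1, a ubiquitin ligase gene that works with chaperones, had 87.1, 92.6 and 83.3 CPM in CreER-positive replicates 1 to 3, against 75.3, 77.0 and 79.4 CPM in control replicates 1 to 3, without overlap (0.18 ± 0.06, edgeR adjusted p 0.250). Fkbp4, an immunophilin gene of the receptor complex, had 319, 319 and 269 CPM in CreER-positive replicates 1 to 3, against 240, 247 and 276 CPM in control replicates 1 to 3 (0.25 ± 0.09, edgeR adjusted p 0.332). The lowest CreER-positive value belonged to replicate 3, and without that library Fkbp4 passed (0.33, edgeR adjusted p 0.0388), as did Hsp90ab1, an HSP90 gene, among 549 of 22442 genes over the whole table. Ptges3, the co-chaperone p23, had 0.12 ± 0.05 (0.434).

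Coregulators of nuclear receptors had a median log2 fold change of 0.01 over 27 tested genes, with 0 calls by edgeR, DESeq2 and limma-voom. At an unadjusted p under 0.05 there was 1 (3.70%, against 10.5% of all tested genes). That gene was Ncoa1, the steroid receptor coactivator SRC-1, at 94.1 ± 6.71 CPM in CreER-positive mice and 82.8 ± 4.90 CPM in controls (SD, n = 3 each; 0.19 ± 0.07, edgeR adjusted p 0.368). Ppargc1b, a coactivator gene of the oestrogen-related receptors, had -0.16 ± 0.07 (0.494), and Phb2, a prohibitin gene, 0.12 ± 0.06 (0.525). Targets of the oestrogen-related receptors in energy metabolism had a median of 0.01 over 29 genes, again with 0 calls by the same 3 tools. At an unadjusted p under 0.05 there was 1 (3.45%, against 10.5% of all tested genes). It was Cs, the citrate synthase gene (0.21 ± 0.08, edgeR adjusted p 0.422). With CreER-positive replicate 3 left out, and 549 of 22442 genes passing over the whole table, Cs passed (0.29, edgeR adjusted p 0.0480). Ckmt2 (-0.53 ± 0.26, 0.530), the sarcomeric mitochondrial creatine kinase gene, and Cpt1b (-0.31 ± 0.15, 0.531), the muscle carnitine palmitoyltransferase gene, are muscle genes. Ckmt2 was highest in control replicate 2, the library with muscle transcripts, at 2.11 CPM, and without it the log2 fold change was -0.17. Cpt1b had 3.15 and 3.27 CPM in control replicates 1 and 2, and without replicate 2 its log2 fold change was -0.22. The part of muscle transcripts in either gene was not tested.

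Of 30 matched genes for making and breaking down steroids, 21 were expressed highly enough to test. Cyp11a1 and Cyp17a1, enzyme genes of steroid synthesis, and the aromatase gene Cyp19a1 were among the 9 that did not pass the filter. Star, of the same list, was tested and averaged 8.67 CPM in CreER-positive mice and 8.39 CPM in controls (0.05 ± 0.07, edgeR adjusted p 0.882). Its groups did not overlap, which held for 3 of the 21 (14.3%, against 15.9% of all tested genes). By edgeR, DESeq2 or limma-voom 0 of the 21 passed, and 1 had an unadjusted p under 0.05 (4.76%, against 10.5% of all tested genes). Por, the reductase that supplies electrons to cytochrome P450 enzymes, had 33.2, 35.7 and 34.6 CPM in CreER-positive replicates 1 to 3, against 27.8, 29.8 and 30.5 CPM in control replicates 1 to 3, without overlap (0.23 ± 0.06, edgeR adjusted p 0.164). Hsd17b11, a hydroxysteroid dehydrogenase gene, had -0.07 ± 0.05 (0.697). Among 34 tested nuclear receptors of other subfamilies the median was 0.00, with 0 calls by the 3 tools. At an unadjusted p under 0.05 the count was 2 (5.88%, against 10.5% of all tested genes). Hnf4g had -0.42 ± 0.18 (edgeR adjusted p 0.450). Pparg, the fat cell regulator, had 0.22 ± 0.11 (0.560).

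**Figure D4:**
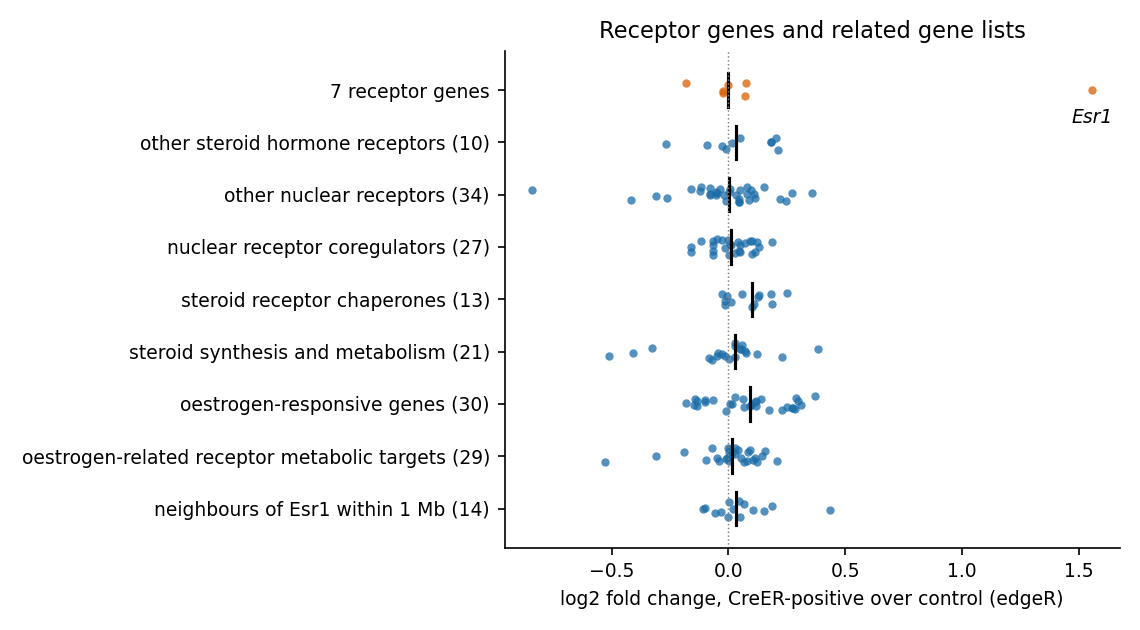
Log2 fold change (edgeR, CreER-positive over control) of the 7 receptor genes (orange), of the tested genes of 7 related lists and of the Esr1 neighbours (blue, number tested in brackets), 1 point a gene and a black line at each list's median. Esr1, at 1.56, lies apart from every other point, and the list medians lie between 0.00 and 0.10.

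Promoters, taken as the RefSeq windows from 250 bases before to 50 bases after each start (GRCm38.p6), were searched on both strands for the consensus oestrogen response element (GGTCA, any 3 bases, TGACC) and for the oestrogen-related receptor element TCAAGGTCA. All 7 receptor genes had a window, and 0 of 7 held either motif. For the oestrogen-responsive genes it was 0 of 24 with a window, and for the metabolic targets 0 of 23. Of all 27025 genes with a window, 0.0740% held the first motif and 0.466% the second, so that few matches would be found in lists of this size.

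The genes whose profile over the 6 libraries was most like that of Esr1 were sought among the 17468 genes whose mean reached 1 CPM, by the root-mean-square difference between log2 CPM values after each gene's own mean was taken off. The median difference from Esr1 over these genes was 0.81 log2 units. The closest were Dpyd (0.29), a pyrimidine breakdown gene, Trpc5 (0.29), a cation channel gene, Alkal2 (0.34), which encodes a ligand of ALK, Sdc1 (0.39), a syndecan gene, and A630023A22Rik (0.39). Dpyd had 151, 142 and 102 CPM in CreER-positive replicates 1 to 3, against 29.4, 31.8 and 30.4 CPM in control replicates 1 to 3, and was lowest in replicate 3 among the CreER-positive mice, as Esr1 was. The measure picks genes that separate the groups, since most of the spread of Esr1 lies between them, and none of the 5 lies on chromosome 10. With a minimum mean of 10 CPM, 3 of the 5 were again among the closest 5.

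**Figure D5:**
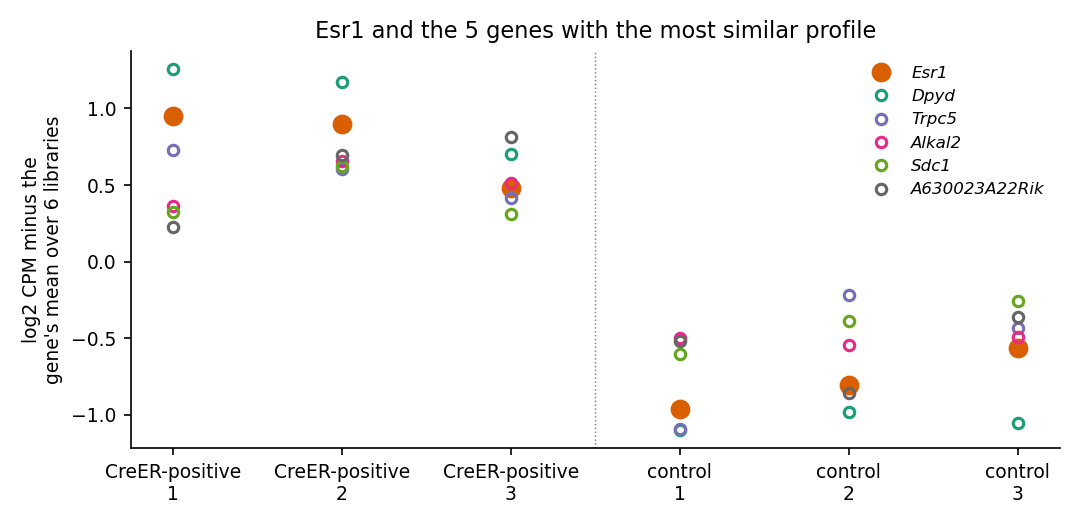
Log2 CPM minus each gene's mean over the 6 libraries, for Esr1 (filled orange) and the 5 genes closest to it (open circles), with CreER-positive libraries left of the dotted line and controls right. All 6 genes are above their mean in the 3 CreER-positive libraries and below it in the 3 controls, and Esr1, Dpyd, Trpc5 and Sdc1 are lowest in replicate 3 among the CreER-positive libraries.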

How the data were processed

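Total RNA of lumbar ganglia was sequenced on an Illumina HiSeq, per the labels. GSNAP aligned the reads to GRCm38 (mm10), per the submitters' processing notes; no source used here gives the counting tool, the annotation or the strand setting. Per the file headers, the authors' tables hold for every NCBI gene its raw count, its width and its RPKM value; the deposited RPKM is the count over that width and a library total. The width was within 5% of the RefSeq span (GRCm38.p6) for 77.7% of genes. Symbols were found for 31049 of 36528 identifiers, and the rest held 1.91% of counts.

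Counts were filtered (filterByExpr), scaled (TMM) and tested with edgeR 4.0.16 (quasi-likelihood, R 4.3.3, Benjamini-Hochberg at 0.05). The SE is the log2 fold change over the square root of F. A bracket after a gene gives its log2 fold change ± SE and its edgeR adjusted p. The edgeR step was tested on simulated counts. Alternatives were other scalings and filters, DESeq2 1.42.0, limma-voom 3.58.1 and left-out libraries. Each group holds 3 animals, and replicates are numbered in the order of deposition.

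Members, lists and tests were chosen with earlier results of these data known. Genes named from a list are those called and the 3 with the smallest unadjusted p, besides the 3 nearest tested neighbours of Esr1 on each side and the 5 genes most like it. Greb1, Ctsd, Nr3c1, Nr2e1, Rgs17, Hsp90ab1, Pgrmc2, Star, Ccnd1, Igfbp4, Cxcl12, Areg, Stc2 and Krt19 were chosen after their values were seen. A few genes picked this way are not reported here.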

Additional observations from a re-analysis of the deposited data

How the results depend on the processing

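The Esr1 log2 fold change lay between 1.47 and 1.69 over 14 alternatives, which is no independent support, since Esr1 chose the family. With left-out libraries 4 of the other receptor genes changed sign: Esr2 ran from -0.10 to 0.058, Gper1 from -0.074 to 0.040, Esrrb from -0.060 to 0.16 and Esrrg from -0.10 to 0.14. Pgr was at -0.018 with CreER-positive replicate 3 and control replicate 2 both left out. Over all genes, 160 calls became 254 with no count filter and 421 with DESeq2. DESeq2 gave p-values for 31086 genes and applied its own filter on low means before adjustment. With 1 library left out, calls ran from 60 (without control replicate 2) to 549 (without CreER-positive replicate 3). The cause of these changes was not tested. Left-out libraries gave 0 to 2 calls among the chaperones, and 0 to 1 among the other steroid receptors and among the metabolic targets; total counts alone and DESeq2 each gave 1 among the other steroid receptors, Paqr5. Per kb of transcript instead of gene width, the level of Esr1 was at rank 2 in CreER-positive mice and 3 in controls, Esrrg 3 and 2, Gper1 5 and 5, Esrrb 6 and 6, Esr2 7 and 7, and Pgr was 4 in controls. With a minimum of 10 CPM, 3 of the 5 genes most like Esr1 were shared.

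Among the other named genes, signs reversed for genes near 0. With left-out libraries Ccdc170 ran from -0.26 to 0.016, Armt1 from -0.027 to 0.020, Rmnd1 from -0.091 to 0.093, Fbxo5 from -0.18 to 0.090 and Scn9a from -0.086 to 0.0049. With both libraries out, Armt1 was at -0.016 and Rmnd1 at -0.13. Armt1 was at -0.0085 with upper-quartile factors, -0.020 with total counts and -0.00043 with at least 1 CPM. Fbxo5 was at 0.00031 with DESeq2 size factors, 0.0078 with no filter and 0.00016 with DESeq2.

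Limits: 3 mice per group, counts that appear to include intron reads, unknown strand setting and read length, and transgene reads that cannot be told apart from Esr1 reads. Esr2 and Gper1 rest on 68 to 123 reads per library. No paired analysis was possible because the labels give no replicate numbers that the groups share.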
